A study of Mus musculus with 6 samples.

Results

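The costimulatory and checkpoint molecules described here are 10 genes whose products let an activated B cell stimulate or restrain a T cell. They were taken by symbol from the table of gene counts, where each name had 1 row, as Cd80, Cd86, Cd83, Icam1, Icosl, Cd274, Pdcd1lg2, Cd70, Tnfsf9 and Ctla4. The table holds 37620 genes, and all 10 were among the 12899 tested. The tested cells were splenic B cells of C57Bl/6 mice aged 4 months, infected with the retroviral vector pMIR-Sox2, which adds the transcription factor Sox2 (3 libraries). The controls were the same kind of cells infected with pMIR alone (3 libraries). Both groups were cultured with anti-CD40 (1 µg/ml) and IL-4 (12.5 µg/ml), infected at 24 and 48 h, and sorted at 96 h for mCherry, the marker of infection. The sources used here name neither the promoter that drives Sox2 nor whether replicates are separate mice. P-values therefore measure the spread between these libraries, which may be technical.

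A T cell that recognises antigen on a B cell also reads a second set of signals from the B cell surface. CD80 and CD86 of the B7 family bind the activating receptor CD28 and the inhibitory receptor CTLA-4, ICOS ligand engages ICOS on helper T cells, and PD-L1 and PD-L2 (Cd274 and Pdcd1lg2) bind the inhibitory receptor PD-1. The tumour necrosis factor (TNF) family ligands CD70 and 4-1BB ligand (Tnfsf9) bind CD27 and 4-1BB, and ICAM-1 holds the cells together through the integrin LFA-1. Several of these genes are induced by CD40 through NF-kB, and in myeloid cells Pdcd1lg2 is induced by IL-4 through STAT6.

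Promoter windows from RefSeq (build GRCm38.p6, 250 bases before to 50 after the start site) were found for 6 of the 10 genes, Cd80, Icam1, Icosl, Cd274, Pdcd1lg2 and Ctla4. They were searched on both strands for the kappaB motif of NF-kB, for the SOX motif ACAATG, and for TTC and GAA set 4 bases apart (STAT6). The kappaB motif was written as GGRRNNYYCC, where R is A or G, Y is C or T and N is any base. Of all 32851 windows of this length, 11.2% held a kappaB match, 6.95% a STAT6 match and 12.6% a SOX match. Among the 6 genes, the kappaB motif matched in 2 (Pdcd1lg2 and Icosl) and each of the others in 1 (Pdcd1lg2). The Icam1 window holds tggaaattcc, which misses the kappaB pattern only in its first base. A window without a match may therefore still hold a site. Shown are the windows of Pdcd1lg2 and Cd274, which are neighbours on chromosome 19 and both fell. Both are on the plus strand, at chr19:29410669-29410968 and chr19:29367188-29367487, written 5′ to 3′ with matches in capitals.
Pdcd1lg2: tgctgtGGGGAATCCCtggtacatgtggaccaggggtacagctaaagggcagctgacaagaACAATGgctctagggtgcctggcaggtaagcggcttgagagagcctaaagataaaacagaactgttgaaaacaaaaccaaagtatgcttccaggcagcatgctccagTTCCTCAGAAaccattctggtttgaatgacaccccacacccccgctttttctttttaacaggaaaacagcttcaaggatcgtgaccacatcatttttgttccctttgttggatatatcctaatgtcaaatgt
Cd274: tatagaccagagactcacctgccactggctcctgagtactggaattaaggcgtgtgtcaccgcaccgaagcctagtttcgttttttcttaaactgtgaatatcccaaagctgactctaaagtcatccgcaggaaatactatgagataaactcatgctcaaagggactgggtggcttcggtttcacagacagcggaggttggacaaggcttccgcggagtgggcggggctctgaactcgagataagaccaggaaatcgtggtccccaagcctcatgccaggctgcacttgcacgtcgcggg
In Pdcd1lg2 the capitals mark, in order, a kappaB match at −244 to −235 from the start site, a SOX match at −189 to −184 and a STAT6 match at −82 to −73. None of these matches overlapped another. The Cd274 window held none of these exact strings, which says nothing of the factors themselves. A match is a description of the letters and not a measured binding site.

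Levels are given in CPM, the counts of a gene relative to its library's scaled total. Gene counts per library ran from 17153805 to 20770447 in pMIR-Sox2 and from 21421769 to 27692437 in pMIR. Sox2 was read at 799.7 ± 183 CPM in pMIR-Sox2 (SD, n = 3) and at 0.949 ± 0.744 CPM (n = 3) in pMIR, as the labels say. All 9 B cell markers listed had counts in every library. Their summed level was 5814 to 7318 CPM in pMIR-Sox2 and 9095 to 10994 CPM in pMIR. By the test given below, 6 of the 9 fell, 1 rose (Pax5) and 2 did not pass (Cd79a and Blnk). Over all genes 20.0% fell and 23.2% rose. On the first principal component of all genes, pMIR-Sox2 replicate 3 lay nearest to pMIR (35.0, against 57.9 and 68.3 for the other pMIR-Sox2 libraries and −54.9 to −52.1 for pMIR). CPM are a share of each library, so fewer cells expressing a gene and less RNA per cell cannot be told apart.

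Of the 10 genes, 7 fell (Cd83, Icam1, Cd274, Pdcd1lg2, Cd70, Tnfsf9 and Ctla4), 1 rose (Cd86) and 2 did not pass the test (Cd80 and Icosl). The test was edgeR's quasi-likelihood test of pMIR-Sox2 over pMIR, with Benjamini-Hochberg adjusted p below 0.05 over all genes tested, and it gives all adjusted p below. Over all genes tested, Sox2 left out, 43.2% passed by the same rule (20.0% fell and 23.2% rose). The counts of falls and rises in the other lists below are to be read beside these same shares. A fall of over 2-fold was called in 6 of the 10, against 5.10% of all genes. These 6 include Cd70, which passed the filter on low counts only through pMIR, where it was high. In 7 of the 10 genes every pMIR-Sox2 library lay below every pMIR library, against 27.6% of all genes, and in 0 every one lay above, against 28.9% of all genes. The median log2 fold change of the 10 was −1.10, and that of all genes −0.02. The 7 falls held under 11 of the 12 alternative settings tried. Without a filter on low counts 5 were called, as Tnfsf9 and Ctla4 then had adjusted p of 0.051.

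**Figure D1:**
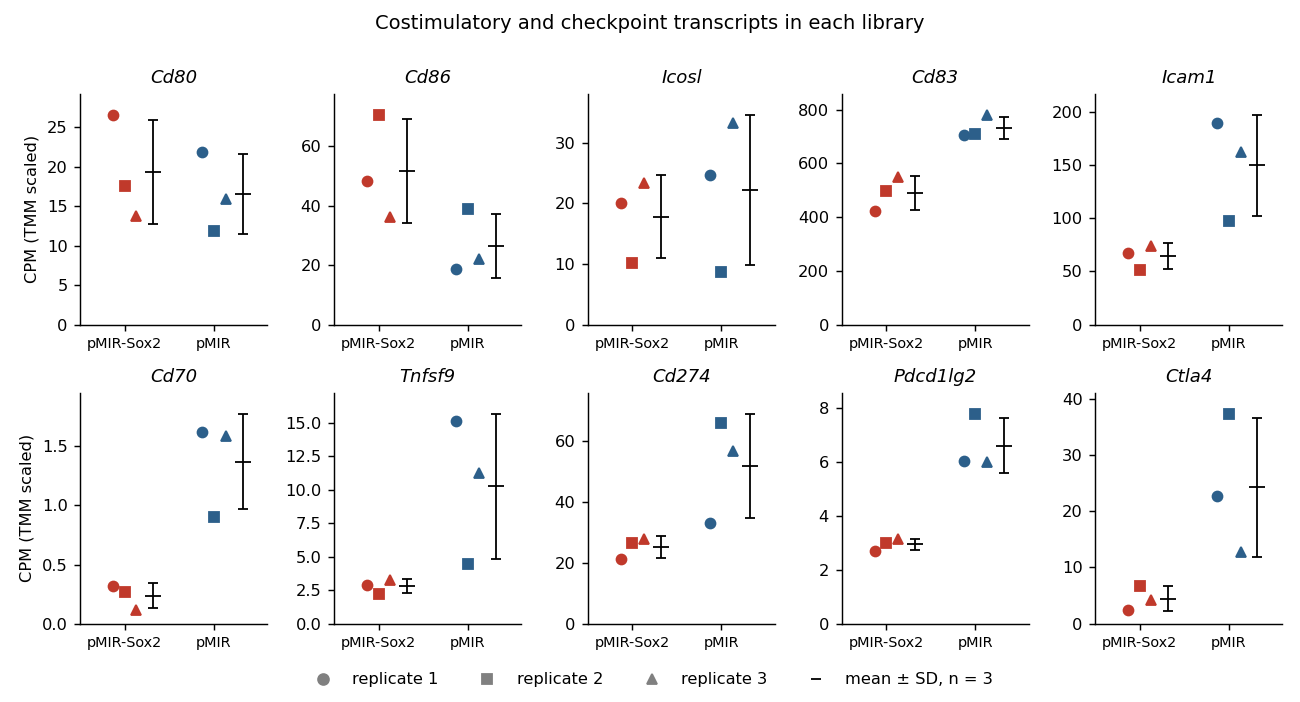
CPM of the 10 genes in each library, with symbols for the replicate number and bars for the mean and SD (n = 3 per group, linear axes from 0). The pMIR-Sox2 libraries lie below all pMIR libraries for Cd83, Icam1, Cd70, Tnfsf9, Cd274, Pdcd1lg2 and Ctla4, whereas the groups overlap for Cd80, Cd86 and Icosl.

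Cd86 was the only one of the 10 that passed the test in the upward direction. Values of libraries are given in the order of replicates 1, 2 and 3 from here on. Cd86 had 48.4, 70.6 and 36.2 CPM in pMIR-Sox2, against 18.7, 38.8 and 22.1 CPM in pMIR. The groups overlapped, because pMIR replicate 2 lay above pMIR-Sox2 replicate 3, but Cd86 was higher in pMIR-Sox2 within each of the 3 replicate numbers. This made a log2 fold change of 0.97 ± 0.30 (SE, adjusted p = 0.0293). The call was lost without pMIR-Sox2 replicate 1 (adjusted p = 0.0672) or 2 (0.136), without pMIR replicate 1 (0.0979) or 3 (0.0956), and with no filter on low counts (0.184). It held under 7 of the 12 alternative settings. Among them were edgeR with the replicate number as a block (adjusted p = 1.49e-05) and DESeq2 (0.00332).

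Cd80, the other B7 ligand of CD28 and CTLA-4, did not pass. It had 26.6, 17.6 and 13.7 CPM in pMIR-Sox2, against 21.8, 11.9 and 15.8 CPM in pMIR. The groups overlapped, and within replicate numbers Cd80 was higher in pMIR-Sox2 in 2 of 3. Its estimate of 0.22 ± 0.27 (log2 fold change ± SE, adjusted p = 0.532) turned to −0.07 without pMIR-Sox2 replicate 1. The ratio of Cd80 to Cd86 within a library, which does not depend on scaling, had a mean log2 of −1.42 ± 0.57 in pMIR-Sox2 and −0.65 ± 0.98 in pMIR (SD, n = 3 each). This difference of −0.77 had a two-sided exact permutation p of 0.3 (0.6 adjusted over the 3 ratios tested). The smallest p that 3 libraries against 3 allow is 0.1, so no ratio could pass. Within replicate numbers the ratio was lower in pMIR-Sox2 in all 3, by −1.09, −0.30 and −0.92, with a paired exact permutation p of 0.25, the smallest that 3 pairs allow. Without pMIR replicate 1 the difference was −0.33, without pMIR-Sox2 replicate 2 it was −0.48, and without pMIR replicate 2 it was −1.29.

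Icosl, the ligand of ICOS, did not pass either. It had 19.98, 10.1 and 23.3 CPM in pMIR-Sox2, against 24.6, 8.72 and 33.2 CPM in pMIR. Replicate 2 was the lowest library of both groups, and the groups overlapped widely. Its estimate was −0.32 ± 0.44 (adjusted p = 0.584), turning to 0.08 without pMIR replicate 3. With all 6 libraries, neither Cd80 nor Icosl had an unadjusted p below 0.05 in edgeR. Without pMIR replicate 2, Icosl did (−0.70, unadjusted p = 0.0478, adjusted p = 0.0994).

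The genes of both PD-1 ligands fell. Cd274, which encodes PD-L1, had 21.2, 26.5 and 27.7 CPM in pMIR-Sox2, against 32.9, 65.9 and 56.5 CPM in pMIR (log2 fold change −1.04 ± 0.23, adjusted p = 0.00698). Pdcd1lg2, which encodes PD-L2, had 2.71, 2.98 and 3.13 CPM in pMIR-Sox2, against 6.01, 7.77 and 6.00 CPM in pMIR (−1.17 ± 0.19, adjusted p = 0.00148). The groups did not overlap for either gene, and the pMIR-Sox2 libraries lay close together while pMIR replicate 2 was the highest of all. Cd274 and Pdcd1lg2 are next to each other in the annotation. The log2 ratio of Pdcd1lg2 to Cd274 was −3.08 ± 0.11 in pMIR-Sox2 and −2.92 ± 0.41 in pMIR (SD, n = 3 each). The difference of −0.16 had an exact permutation p of 0.8 (0.8 adjusted), and it was 0.08 without pMIR replicate 1. It was lower in 2 of 3 replicate numbers (paired exact permutation p = 0.75), so these data do not settle whether the falls differ in size.

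The TNF family ligand Cd70 and the receptor gene Ctla4 had the lowest log2 fold changes of the 10, and which of them was lower changed between settings. Cd70 was scarce in both groups, with 7, 5 and 2 counts in pMIR-Sox2 and 44, 19 and 33 counts in pMIR. That was 0.322, 0.270 and 0.116 CPM in pMIR-Sox2, against 1.62, 0.906 and 1.58 CPM in pMIR (−2.48 ± 0.42, adjusted p = 0.00163). Tnfsf9, which lies beside Cd70 on chromosome 17, had 2.89, 2.22 and 3.25 CPM in pMIR-Sox2, against 15.1, 4.43 and 11.2 CPM in pMIR (−1.88 ± 0.40, adjusted p = 0.00565). Neither gene's groups overlapped. For both ligands pMIR replicate 2 was the lowest control. The log2 ratio of Cd70 to Tnfsf9 was −3.50 ± 0.87 in pMIR-Sox2 and −2.76 ± 0.47 in pMIR (SD, n = 3 each, exact permutation p = 0.4, 0.6 adjusted), and it was lower in 2 of 3 replicate numbers (paired exact permutation p = 0.5). The difference of −0.74 became −0.24 without pMIR-Sox2 replicate 3, −0.49 without pMIR replicate 2 and −0.41 with 2 counts added in place of 0.5. Tnfsf9 shares 192 exon bases with Gm11110 on the opposite strand in GENCODE M21. Icam1 and Cd274 each share exon bases with an antisense gene too. The strand setting of the counting is not given, so reads from these pairs cannot be told apart.

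Cd83 was the most abundant of the 10 per exon length, and its fall was the smallest of the 7. The CD83 protein, studied in mouse, holds CD86 and MHC class II at the surface by opposing the ubiquitin ligase MARCH1. Cd83 had 422, 499 and 550.0 CPM in pMIR-Sox2, against 707, 709.7 and 782 CPM in pMIR. The groups stood clear of each other and each was narrow, with a mean fall of 33.1% (log2 fold change −0.58 ± 0.12, adjusted p = 0.00533). Icam1, the adhesion ligand of LFA-1, fell further. It had 67.8, 51.2 and 74.3 CPM in pMIR-Sox2, against 189.9, 97.2 and 162 CPM in pMIR (−1.22 ± 0.24, adjusted p = 0.00343). Replicate 2 was the lowest Icam1 library in both groups.

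Ctla4 encodes the inhibitory receptor of CD80 and CD86, best known from T cells. It had 2.39, 6.71 and 4.29 CPM in pMIR-Sox2, against 22.7, 37.3 and 12.8 CPM in pMIR (log2 fold change −2.45 ± 0.44, adjusted p = 0.00228). All pMIR-Sox2 libraries were below all pMIR libraries, although each group spanned nearly a 3-fold range. Markers of T cells were read beside it. Cd3d, Cd3e, Cd3g, Cd4, Cd8a and Cd8b1 had 0 to 3 counts each per pMIR-Sox2 library and 0 to 5 in pMIR. The 12 T cell markers summed to 47.3 to 61.4 CPM in pMIR-Sox2 and 59.4 to 64.1 CPM in pMIR, nearly all of it Lck (47.8 ± 8.24 CPM in pMIR-Sox2 and 59.4 ± 2.32 CPM in pMIR, n = 3 each). Of the 4 T cell markers tested, 1 rose (Trat1, 2.93) and 0 fell. Trat1 had 21, 30 and 20 counts in pMIR-Sox2 and 6, 3 and 2 in pMIR, and passed the filter on low counts only through pMIR-Sox2. At an unadjusted p below 0.05 in edgeR, Lck was lower (−0.31, unadjusted p = 0.0368) and Cd247 higher (0.90, unadjusted p = 0.0245). The part of T cells in the fall of Ctla4 was not tested.

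**Figure D2:**
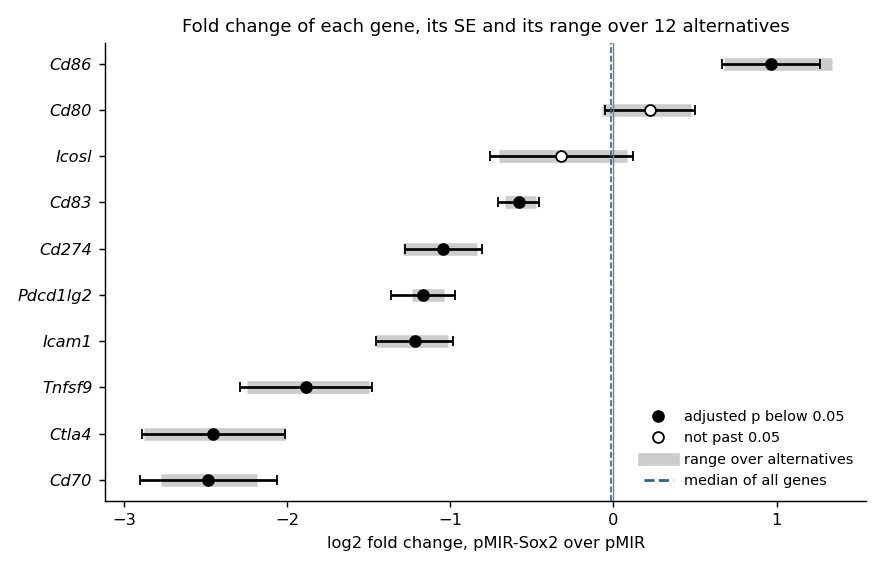
Log2 fold change of pMIR-Sox2 over pMIR for each of the 10 genes, with its SE as bars, filled points for adjusted p below 0.05, and grey bands for the range over the 12 alternative settings. The bands of the 7 genes that fell stay below 0, that of Cd86 stays above 0, and those of Cd80 and Icosl cross it.

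The samples carry replicate numbers that are shared between the groups, and same-numbered libraries deviated together. The correlation of their deviations from the group means over all genes was 0.24 for number 1, 0.36 for number 2 and 0.19 for number 3. Between libraries of unlike number the correlation ran from −0.24 to 0.03. The main test did not use the numbers. With the numbers as a block in edgeR, 3486 of all genes rose and 3314 fell, against 2990 and 2577 in the main test. Within the numbers, 7 of the 10 genes were lower in pMIR-Sox2 in all 3 and Cd86 was higher in all 3. The 7 are those whose groups did not overlap, so their direction within the numbers followed from that and adds no support. The share of all genes with the same direction in all 3 numbers was not computed. The size of the difference varied with the number. Ctla4 differed by −3.25, −2.48 and −1.57 on the log2 scale in numbers 1, 2 and 3, and Tnfsf9 by −2.38, −0.999 and −1.79. Cd83 was steadier, at −0.74, −0.51 and −0.51, and so was Pdcd1lg2, at −1.15, −1.38 and −0.94. Replicate 2 was the highest library of both groups for Cd86 and Ctla4, and the lowest of both for Icam1, Icosl and Tnfsf9.

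**Figure D3:**
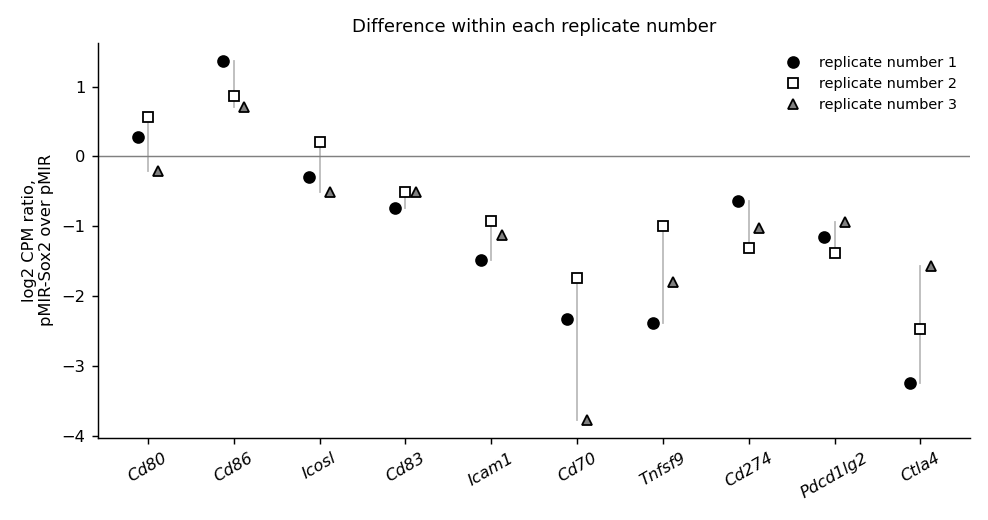
Log2 ratio of CPM, pMIR-Sox2 over pMIR, within each replicate number (1 point per number and gene). Cd86 lies above 0 in all 3 numbers, 7 genes lie below 0 in all 3, and Cd80 and Icosl lie on both sides.

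To set the levels of different genes side by side, CPM were divided by exon length in kilobases. On this scale Cd83 stood highest in each group, at 191 ± 25.1 CPM per kilobase in pMIR-Sox2 and 285 ± 16.4 in pMIR (SD, n = 3 each), and Cd70 lowest, at 0.280 ± 0.127 in pMIR-Sox2 and 1.63 ± 0.479 in pMIR. Icam1 was second in each, at 14.8 ± 2.74 in pMIR-Sox2 and 34.4 ± 10.9 in pMIR. Cd86 took place 3 of 10 in pMIR-Sox2 (14.1 ± 4.77), where its libraries overlapped those of Icam1, and place 6 in pMIR (7.25 ± 2.95). Ctla4 took place 8 in pMIR-Sox2 (1.91 ± 0.929) and place 4 in pMIR (10.4 ± 5.30). Cd274 was at 6.94 ± 0.959 in pMIR-Sox2 and 14.3 ± 4.70 in pMIR. Between Cd274 and Pdcd1lg2, neighbours in the order had overlapping libraries in both groups, so their places are not fixed by these data.

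The receptors of these ligands and other checkpoint receptors fell in 9 of 14 tested genes, rose in 1 and did not pass in 4 (median log2 fold change −1.16). Tnfrsf8, which encodes CD30, was at 16.8 ± 1.85 CPM in pMIR-Sox2 and 102 ± 24.4 CPM in pMIR (n = 3 each, −2.61 ± 0.18, adjusted p = 1.99e-05). Havcr2, which encodes TIM-3 and is named after its values were seen, was the one that rose (2.64, adjusted p = 0.00494), and without pMIR-Sox2 replicate 3 there were 2 rises. Timd2 (−1.98), Tigit (−2.17) and Lag3 (−1.98) fell as well. Counts were low for Havcr2 (21, 29 and 9 in pMIR-Sox2, against 6, 1 and 4 in pMIR). They were also low for Tigit (10, 12 and 8, against 55, 58 and 49) and Lag3 (7, 8 and 6, against 44, 18 and 39). Havcr2 passed the filter on low counts only through pMIR-Sox2, and Tigit and Lag3 only through pMIR, each where it was high. The rise of Havcr2 and the falls of Tigit and Lag3 could thus be tested only because of that group. Cd28, the gene beside Ctla4, had 0.827, 1.30 and 3.71 CPM in pMIR-Sox2, against 4.79, 11.5 and 5.47 CPM in pMIR (−1.92 ± 0.53, adjusted p = 0.0172). The Cd28 call was lost without pMIR-Sox2 replicate 1 (0.0653) or 2 (0.0832), without pMIR replicate 2 (0.0514) and with no filter (0.141). Pdcd1, which encodes PD-1, had 9, 2 and 12 counts in pMIR-Sox2, against 46, 6 and 45 in pMIR (−1.78, adjusted p = 0.0749). Fitted with the replicate number as a block, Pdcd1 passed (adjusted p = 0.000535), as it did without pMIR-Sox2 replicate 3 (0.0498) or without pMIR replicate 2 (0.0069). Tnfrsf14, the binding partner of BTLA, did not pass (−0.06). Icos, Tnfrsf9 and Cd27 were below the filter on low counts, with at most 1, 4 and 10 counts in a pMIR-Sox2 library and 3, 13 and 5 in a pMIR library. The 7 natural killer cell markers summed to 2.60 to 3.48 CPM in pMIR-Sox2 and 3.46 to 3.58 CPM in pMIR, with Ncr1 at 0 counts in all 6 libraries. Of these 1 was tested, Prf1, and it did not pass.

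Other TNF family ligands fell in 6 of 8 tested genes, rose in 1 and did not pass in 1 (median −1.30). Tnfsf8, which encodes the ligand of CD30, was at 0.542 ± 0.301 CPM in pMIR-Sox2 and 3.70 ± 1.01 CPM in pMIR (n = 3 each, −2.76 ± 0.40, adjusted p = 0.00067). Tnfsf4, the ligand of OX40, did not pass (−1.10, adjusted p = 0.0755), but it did with the replicate block (0.000708), by DESeq2 (0.0309) and without pMIR replicate 2 (0.0143). Tnfsf11, which encodes RANKL, fell by 2.73 and Lta, a lymphotoxin chain, by 0.80 on the log2 scale. Tnfsf11 rests on 2, 2 and 3 counts in pMIR-Sox2, against 21, 18 and 19 in pMIR. Counts were also low for Tnfsf8 (13, 4 and 14 in pMIR-Sox2, against 80, 69 and 101 in pMIR). Tnfsf14, named after its values were seen, fell too (10, 7 and 16 counts in pMIR-Sox2, against 42, 30 and 42 in pMIR). Tnfsf8, Tnfsf11 and Tnfsf14 passed the filter on low counts only through pMIR, where they were high. The 6 falls thus include genes that could be tested only because of pMIR. Tnfsf10, which encodes the death ligand TRAIL, rose, at 6.55 ± 2.36 CPM in pMIR-Sox2 and 1.14 ± 0.120 CPM in pMIR (n = 3 each, 2.51 ± 0.31, adjusted p = 0.000295).

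Of 8 tested ligands listed as related to B7 and butyrophilins, beyond the 10, 2 rose, 3 fell and 3 did not pass (median 0.21). Over all genes 23.2% rose and 20.0% fell. The list is mixed, as Pvr, Pvrl2, Lgals9 and Ceacam1 belong to other families, so its counts and median do not describe the B7 family alone. Cd200, the ligand of an inhibitory receptor on myeloid cells, had 83.7, 89.5 and 69.96 CPM in pMIR-Sox2, against 30.4, 31.9 and 28.4 CPM in pMIR (1.42 ± 0.12, adjusted p = 4.6e-05). Ceacam1, an adhesion molecule with inhibitory signalling, had 36.2, 52.6 and 31.99 CPM in pMIR-Sox2, against 8.11, 13.9 and 10.2 CPM in pMIR (1.91 ± 0.24, adjusted p = 0.000374). Btnl2, a butyrophilin-like inhibitor of T cells, fell (−1.58). Pvr, a ligand of TIGIT that is named after its values were seen, passed as a fall although its groups overlapped (−0.46, adjusted p = 0.0433). Its call was lost without pMIR-Sox2 replicate 1 (0.152) or 2 (0.0918), without pMIR replicate 2 (0.112) or 3 (0.132), and with library totals only (0.0696). The gene for VISTA, listed as 4632428N05Rik, fell too (−0.94, adjusted p = 0.0363), but its call was lost without pMIR-Sox2 replicate 1 (0.134) or 3 (0.0612), without pMIR replicate 2 (0.0975), by limma-voom (0.0531) and with no filter (0.0631). The list's falls numbered 1 without pMIR-Sox2 replicate 1 or without pMIR replicate 2.

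Adhesion and SLAM family partners fell in 5 of 13 tested genes, rose in 1 and did not pass in 7 (median −0.43). With the replicate block 2 rose, the added one being Slamf1 (0.47 without the block, adjusted p = 0.282, and 0.50 with it, adjusted p = 0.0199). LFA-1, the receptor of ICAM-1, is a pair of chains. Its alpha chain Itgal was at 90.3 ± 6.68 CPM in pMIR-Sox2 and 147 ± 10.02 CPM in pMIR (n = 3 each, −0.70 ± 0.10, adjusted p = 0.000704), and its beta chain Itgb2 did not pass (0.08 ± 0.11, adjusted p = 0.583). Cd48, a ligand of CD2 and CD244, fell (−1.07) and so did Slamf7 (−1.20). Cd24a, a surface glycoprotein, rose by 0.75, at 291 ± 34.6 CPM in pMIR-Sox2 and 172 ± 7.70 CPM in pMIR.

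Of 22 regulators of these genes, 12 fell, 6 rose and 4 did not pass (median −0.41). March8 encodes a ubiquitin ligase that removes CD86 and MHC class II from the surface. It had 46.0, 39.2 and 22.7 CPM in pMIR-Sox2, against 4.17, 5.53 and 5.19 CPM in pMIR (2.86 ± 0.26, adjusted p = 8.19e-05), and the groups stood far apart. Its relative March1, named here after its values were seen, had 14.5, 20.6 and 16.0 CPM in pMIR-Sox2, against 17.1, 40.03 and 22.4 CPM in pMIR (−0.64 ± 0.29, adjusted p = 0.103, 0.00264 with the replicate block and 0.0307 without pMIR replicate 1). Cd40, the receptor stimulated in the culture, had 27.7, 25.6 and 46.0 CPM in pMIR-Sox2, against 93.0, 65.5 and 110.6 CPM in pMIR (−1.44). Batf3, Irf4 and Batf, transcription factors of activated lymphocytes, fell as well (−4.62, −1.72 and −1.09). Batf3 had only 4, 4 and 7 counts in pMIR-Sox2, against 241, 135 and 90 in pMIR. It passed the filter on low counts only through pMIR, where it was high. The list's rises numbered 3 when replicate 1 or 2 of pMIR-Sox2, or replicate 1 of pMIR, was left out.

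**Figure D4:**
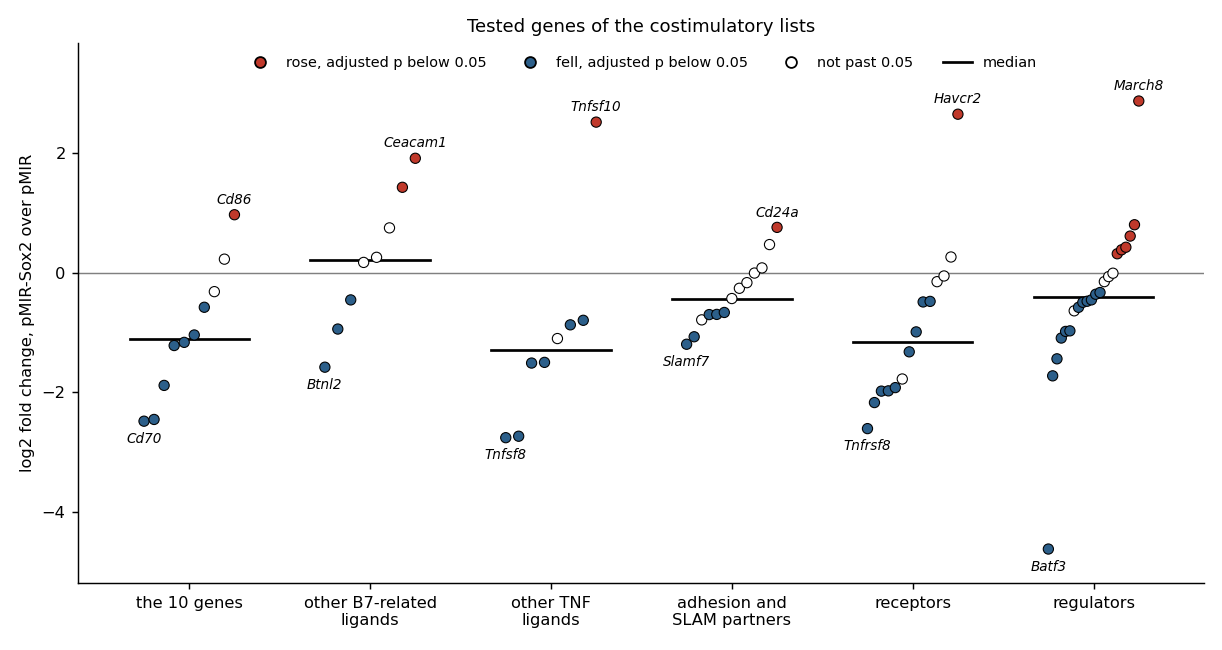
Log2 fold change of pMIR-Sox2 over pMIR for each tested gene of the 10 and of the 5 related lists, sorted within a list, coloured by the call, with the list's median as a line and its end genes named. Most tested TNF ligands and receptors lie below 0, while the B7-related ligands lie on both sides, with Ceacam1 and Cd200 above and Btnl2 below.

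Several of the 10 genes are also made by dendritic cells and macrophages, so 14 markers of these cells were read in the same libraries. They summed to 50.4 to 56.2 CPM in pMIR-Sox2 and 70.5 to 80.9 CPM in pMIR, and of 8 tested 3 rose and 3 fell. Zbtb46 (−1.94), Flt3 (−1.18) and Cd68 (−1.12) fell, whereas Lyz2 (4.25), Itgam (2.76) and Emr1 (0.56) rose. Lyz2 was near the floor, with 17, 10 and 11 counts in pMIR-Sox2 and 1, 0 and 1 in pMIR. It passed the filter on low counts only through pMIR-Sox2, where it was high. So did Itgam, with 70, 92 and 55 counts in pMIR-Sox2 and 13, 13 and 12 in pMIR. S100a8 and S100a9 were at 0 counts in all 6 libraries, and Cd14 had 1 count in all. The part of such cells in the falls of the 10 genes was not tested.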

How the data were processed

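RNA of 6 libraries was sequenced, 3 of pMIR-Sox2 and 3 of pMIR, grouped by the sample titles. Raw counts for each Ensembl identifier were deposited by the authors in 1 table. The submitters' processing notes name HTSeq 0.6.1p1, TopHat2 2.0.11, Trimmomatic 0.32, SAMtools 0.1.19 and Bowtie2 2.2.2, and the build mm9, without saying what each was used for. The annotation and strand setting are not given in the sources used here. Lines that name no gene (47.0 to 47.7% of all counts in pMIR-Sox2, 46.8 to 48.1% in pMIR) were left out. March1 and March8, whose symbols the table writes as dates, were matched by identifier, and Tnfsf12 was not used here.

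Counts were filtered with filterByExpr, scaled by TMM and fitted in edgeR 4.0.16 (R 4.3.3) with robust quasi-likelihood, group only, over 12899 genes. Exon lengths are those of GENCODE M21 (GRCm38), which is another build. SE is the log2 fold change over the square root of F. Within-library ratios used counts plus 0.5. The replicate numbers (8, 9 and 12 in the descriptions) were taken to pair the libraries, since each same-numbered correlation was over 0.1. Alternatives were RLE size factors, library totals only, no filter, DESeq2 1.42.0, limma-voom (limma 3.58.1), the replicate block and leaving out each library. The fits were tested on simulated data. There the main fit recovered 15 of 50 changes of 1.5-fold, 47 of 50 of 2-fold and 50 of 50 of 8-fold, with 17 false calls. The changed genes were not drawn from the scarcest genes, and no effect of the replicate number was simulated. The recovered shares therefore do not carry over to scarce genes or to those that varied with the number. A gene that did not pass may still have changed, and where its SE is wide, not only by a small factor. Named genes were the 10, up to 4 of smallest adjusted p per list, and fixed partners. Pvr, Havcr2, Tnfsf4, Tnfsf14, Slamf1 and March1 were named after their values were seen. The genes and lists were chosen with earlier results of these data known.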

Additional observations from a re-analysis of the deposited data

How the results depend on the processing

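Of the 10 genes, 7 fell in each alternative apart from no filter on low counts, where 5 did and 0 rose. There the log2 fold changes were 0.99 for Cd86 (adjusted p = 0.184), −1.87 for Tnfsf9 (0.051) and −2.44 for Ctla4 (0.0506). The cause was not tested. Leaving out 1 library gave 0 to 1 rise, and values of 0.68 to 1.34 for Cd86, −2.25 to −1.50 for Tnfsf9, −2.88 to −2.01 for Ctla4, −0.072 to 0.48 for Cd80 and −0.70 to 0.083 for Icosl. For the log2 ratio of Pdcd1lg2 to Cd274 the difference was then −0.31 to 0.078, for that of Cd80 to Cd86 −1.29 to −0.33 and for that of Cd70 to Tnfsf9 −1.03 to −0.24.

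Leaving out 1 library gave 1 to 3 falls among other B7-related ligands, 1 to 2 rises among receptors and 3 to 6 rises among regulators. With the replicate block 2 adhesion and SLAM genes rose. It also changed the call of Tnfsf4 (−1.01, adjusted p = 0.000708), Slamf1 (0.50, 0.0199), Pdcd1 and March1, and of no other gene in the lists. Among genes that did not pass, Itgb2 ranged from −0.013 (without pMIR replicate 1) to 0.13 when 1 library was left out, and Tnfrsf14 from −0.22 to 0.22. Tnfrsf14 turned to 0.023 with library totals only, 0.06 without pMIR-Sox2 replicate 3 and 0.22 without pMIR replicate 2. With library totals only, 62.4% of called genes rose, against 53.7%. Cd70 rests on 2 to 7 counts per pMIR-Sox2 library.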

Other observations

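By a rule on likeness of pattern, the 3 genes nearest to Pdcd1lg2, the gene of the 10 that fell with the smallest p, were Rrad, Igkv17-121 and Xylt2. Their log2 CPM, centred over the 6 libraries, differed from those of Pdcd1lg2 by a root mean square of 0.0312, 0.0402 and 0.0621. Their log2 fold changes were −1.12, −1.16 and −1.10. The 3 nearest to Cd86 were Avpr2, Arhgap4 and Pou6f1, with differences of 0.074, 0.094 and 0.136. Of these Arhgap4 passed the test (1.08, adjusted p = 0.00851), whereas Avpr2 (1.08, 0.0563) and Pou6f1 (0.81, 0.069) did not. The likeness is over 6 libraries of 2 groups and is a description.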
